A study of Mus musculus with 4 samples.

Results

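Endothelial cells line the blood and lymphatic vessels of the lung, and 36 genes that mark them were followed in whole-lung RNA of mouse embryos at embryonic day 14.5. The genes were chosen by symbol as general endothelial, arterial, venous, capillary and lymphatic genes. They are 36 of the 52636 genes in the deposited table. Wild-type C57BL/6 controls (n = 2) were compared with C57BL/6 embryos carrying a conditional knockout of Yap, named Yap CKO (n = 2). The series title places the knockout in the epithelium, so endothelial cells are not its stated target. The labels name neither the Cre driver nor the deleted exons, and do not say whether a library came from 1 embryo or several. The p-values therefore measure only the spread between these samples, which may be technical.

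Lung vessels form together with the branching airways. Epithelium and mesenchyme secrete VEGF ligands, which endothelial cells bind through the receptors Kdr, Flt1 and Flt4, while angiopoietins act through Tek with its partner Tie1. Transcription factors of the ETS family (Erg, Fli1) and of the SOXF group (Sox7, Sox17, Sox18) keep up the endothelial program. Sox17 is known for arteries, Nr2f2 for veins, and Sox18 acts before Prox1 when lymphatic endothelium forms.

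The libraries held 17756301 to 21333878 reads counted to genes. The values are normalized read counts, that is reads divided by 1 factor per library. The control libraries held 5686 and 3467 normalized counts of Yap1 itself, and the knockout libraries 3209 and 4483. These groups overlapped, and reads over the whole gene in all lung cells do not check the label, so every direction is that of the libraries labelled Yap CKO. Xist, of the inactive X chromosome, was at 42.6 in control 1 and between 42729 and 50045 in the other libraries. Ddx3y, of the Y chromosome, was at 1726 in control 1, 16.4 in control 2, and 5.77 and 13.0 in Yap CKO. By these genes control 1 was male and the other libraries female, so sex was not balanced between groups. The part of sex in the differences was not tested. Heart muscle genes differed too, with sums of 1828 and 51559 in controls 1 and 2 and of 11615 and 2125 in Yap CKO 1 and 2. The 10 lung epithelial markers were measured in every library, with sums of 15714 to 17459. Among them Sftpc rose (log2 difference 0.97, adjusted p = 0.00909, limma), Sox2 fell (-0.91, adjusted p = 0.0286) and 8 did not pass, and 8 of the 10 had a negative log2 difference. Both calls ended without either Yap CKO library and without the intensity trend, and that of Sox2 also without the filter and with a replicate block (adjusted p = 0.0503).

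None of the 36 endothelial genes passed the test between Yap CKO and control lungs, against 2.33% of all 19472 genes tested (limma, adjusted p under 0.05). At an unadjusted p under 0.05 there were 5 (Sox18, Gja4, Sox7, Plvap and Mmrn1), which is 13.9% of the members against 18.9% of all genes. Of these 1 was higher and 4 were lower in Yap CKO, where 9.34% and 9.52% of all genes stood. The count tests on recovered reads called 0 members with edgeR, where 2.07% of all genes were called, and 1 member, Sox18, with DESeq2, where the share was 5.54%. Leaving out a control raised the calls over the whole table, to 13.7% of genes without control 1, with 8 members, and to 12.7% without control 2, with 5 members. All 36 passed the filter of a mean of at least 10 normalized counts, and 34 had a mean of at least 100. Their summed level was 59331 and 68039 in controls 1 and 2, and 63483 and 62654 in Yap CKO 1 and 2. Those sums are 0.288%, 0.328%, 0.321% and 0.315% of the normalized total, so both Yap CKO libraries lay between the controls. In a whole organ, fewer endothelial cells and less RNA per cell cannot be told apart.

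**Figure D1:**
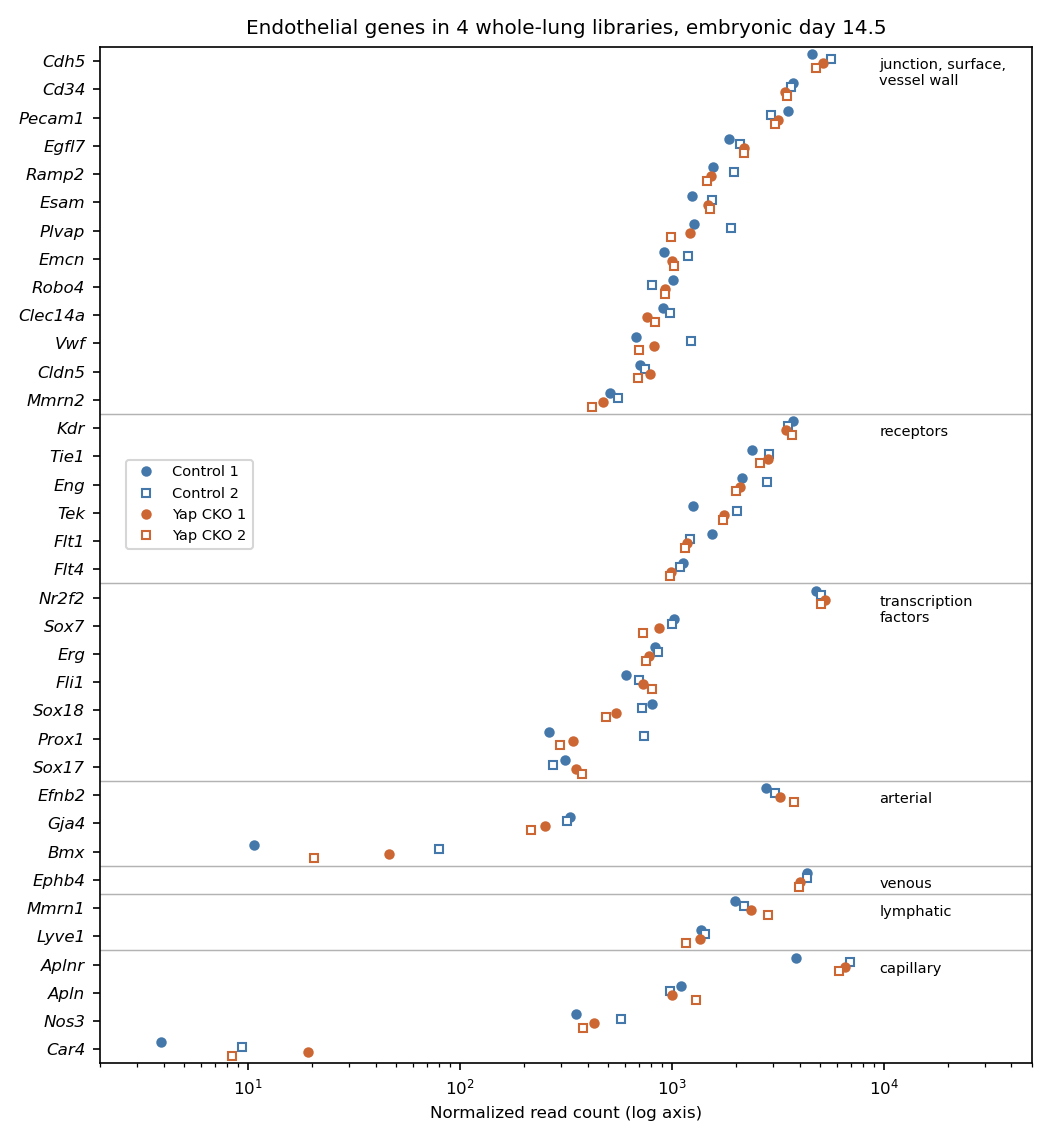
Normalized read count (log axis) of each of the 36 endothelial genes in the 4 libraries, grouped by role, with controls in blue, Yap CKO in orange, replicate 1 filled and replicate 2 open. 34 of the genes have a mean of at least 100. The genes below that are widely spread, with Bmx from 10.7 to 79.5 and Car4 from 3.88 to 19.2. Some higher genes are spread too, such as Prox1 from 264 to 740 and Aplnr from 3837 to 6915.

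The differences were small. The median log2 difference of the 36 genes, Yap CKO minus control, was -0.05, with quartiles of -0.23 and 0.11. Over all genes tested the median was -0.005 and the quartiles were -0.18 and 0.20. The 95% interval of the difference lay within 1.5-fold either way for 23 genes and within 2-fold for 33. Prox1, Bmx and Car4 had wider intervals, so a change of that size was not excluded for them. Groups did not overlap for 19 genes (52.8%, against 50.8% of all genes), of which 14 were lower in Yap CKO (38.9%, against 25.6%) and 5 higher (13.9%, against 25.2%). With libraries rescaled to equal totals 9 were lower (25% of the members, against 18.8% of all genes) and 7 higher (19.4%, against 32.4%).

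**Figure D2:**
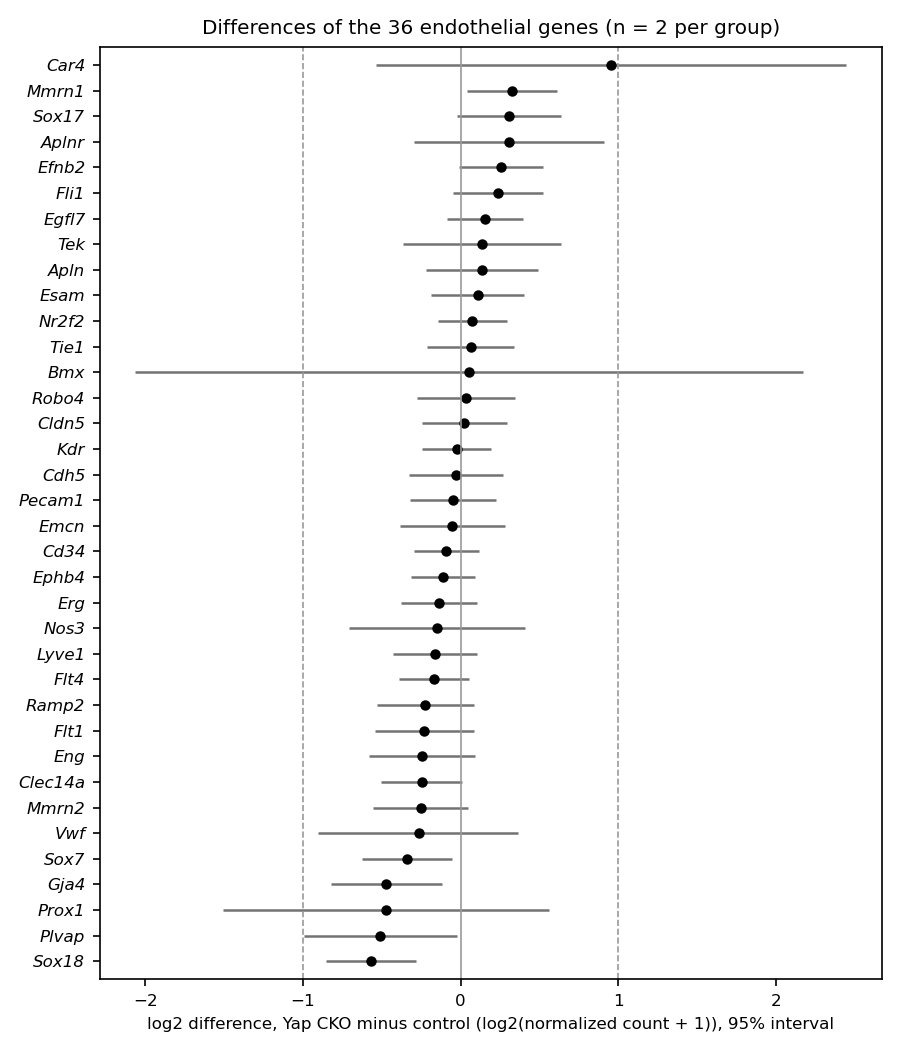
Log2 difference (Yap CKO minus control, on log2 of normalized count plus 1) of each endothelial gene with its 95% interval from limma, n = 2 per group, sorted by size, with dashed lines at 1 and -1. Sox18 is the lowest at -0.57 and Car4 the highest at 0.96, and the intervals of Bmx, Car4 and Prox1 cross a dashed line.

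Genes for the junctions that hold endothelial cells together were close to equal. Cdh5, which encodes VE-cadherin, stood at 4562 and 5641 in the controls and at 5178 and 4779 in Yap CKO. Both Yap CKO values lay between the controls, and the fold of Yap CKO over control was 0.981 with a 95% interval of 0.797 to 1.21. Pecam1, the adhesion molecule CD31, was at 3523 and 2926 in controls and 3153 and 3062 in Yap CKO (0.968-fold, 0.802 to 1.17). Again the knockout values fell inside the control range. The tight junction gene Cldn5 (1.02-fold, 0.844 to 1.22) and Esam, another junction adhesion molecule (1.08-fold, 0.877 to 1.32), overlapped between groups as well.

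Among 13 genes for junctions, surface proteins and vessel wall products, 0 were called and the median log2 difference was -0.05. Cd34, a sialomucin of vessels that mesenchymal and blood progenitor cells also carry, was at 3712 and 3645 in controls and 3406 and 3506 in Yap CKO. The knockouts were lower, by a log2 difference of -0.09 (adjusted p = 0.628, limma). Plvap, which forms the diaphragms of fenestrae and caveolae, had the smallest p of these genes. It was measured at 1273 and 1907 in controls and at 1215 and 988 in Yap CKO. Both knockouts were below both controls, but control 1 and Yap CKO 1 nearly met (log2 difference -0.51 ± 0.20 SE, adjusted p = 0.246). Without control 1 the difference of Plvap was -0.80 (adjusted p = 0.00155), and without control 2 it was -0.22 (adjusted p = 0.338). The remaining surface and secreted genes had log2 differences from -0.27 for Vwf, the clotting factor carrier, to 0.15 for Egfl7, a secreted vessel protein. In between were Mmrn2 (-0.25), which binds the lectin receptor Clec14a (-0.25), the sialomucin Emcn (-0.05), the guidance receptor Robo4 (0.035) and Ramp2 (-0.22), the partner of the adrenomedullin receptor. Ramp2 shares 33.4% of its exon bases with the protein-coding gene Vps25 on the same strand.

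The VEGF and angiopoietin receptors showed no call either. Kdr, the main VEGF receptor of blood vessels, was at 3727 and 3534 in controls and 3449 and 3690 in Yap CKO. All 4 values lay within a narrow range, and the fold was 0.983 (0.845 to 1.14). Tie1 stood at 2394 and 2858 in controls and at 2852 and 2617 in Yap CKO, inside the control range. Flt4, the VEGF-C receptor of lymphatic vessels, had the smallest p among the receptors. It measured 1125 and 1096 in controls and 994 and 981 in Yap CKO. The groups were apart, by a log2 difference of -0.17 ± 0.09 SE (adjusted p = 0.391). The VEGF decoy receptor Flt1 (-0.23) and the TGF-beta co-receptor Eng (-0.25) were lower without a call, and Tek was at 0.14. Leaving out 1 control moved some of these. Without control 2, Flt1 (-0.40, adjusted p = 0.03) and Tek (0.48, adjusted p = 0.00817) passed, and without control 1, Eng (-0.44, adjusted p = 0.0165) and Ramp2 (-0.39, adjusted p = 0.0351) passed.

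The 3 SOXF factors did not move together. Sox18 and Sox7 were lower and Sox17 was higher in both Yap CKO libraries, none was called, and each kept its sign under every setting tried. Sox18 (mm10 chromosome 2, 181669836 to 181671640) stood at 806 and 722 in controls and at 542 and 488 in Yap CKO. The groups did not overlap, with means of 764 ± 59.9 and 515 ± 38.0 (SD, n = 2). The log2 difference of Sox18 was -0.57 ± 0.12 SE and the adjusted p was 0.0727 (limma), the lowest among the members. DESeq2 gave 0.0168 and edgeR 0.0788. Over all settings tried the difference ranged from -0.65 to -0.49 and the adjusted p from 0.0035 without control 2 to 0.479 without Yap CKO 2.

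Sox7 (chromosome 14, 63943673 to 63950732) was lower in the same libraries. It was at 1022 and 999 in controls and at 870 and 731 in Yap CKO (-0.34 ± 0.12, adjusted p = 0.195). Sox17 (chromosome 1, 4490931 to 4497354) lay the other way, at 314 and 275 in controls and 351 and 377 in Yap CKO (0.31 ± 0.14, adjusted p = 0.298). A noncoding gene on the other strand covers 16.8% of the exon bases of Sox17, and without a known strand setting their reads cannot be told apart. The ratio of Sox17 to Sox18 within a library does not depend on the scaling between libraries. It was 0.389 and 0.381 in controls and 0.647 and 0.771 in Yap CKO. Relative to Pecam1, the ratio of Sox18 was 0.229 and 0.247 in controls and 0.172 and 0.16 in Yap CKO. These ratios were chosen after the values were seen and were not tested.

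**Figure D3:**
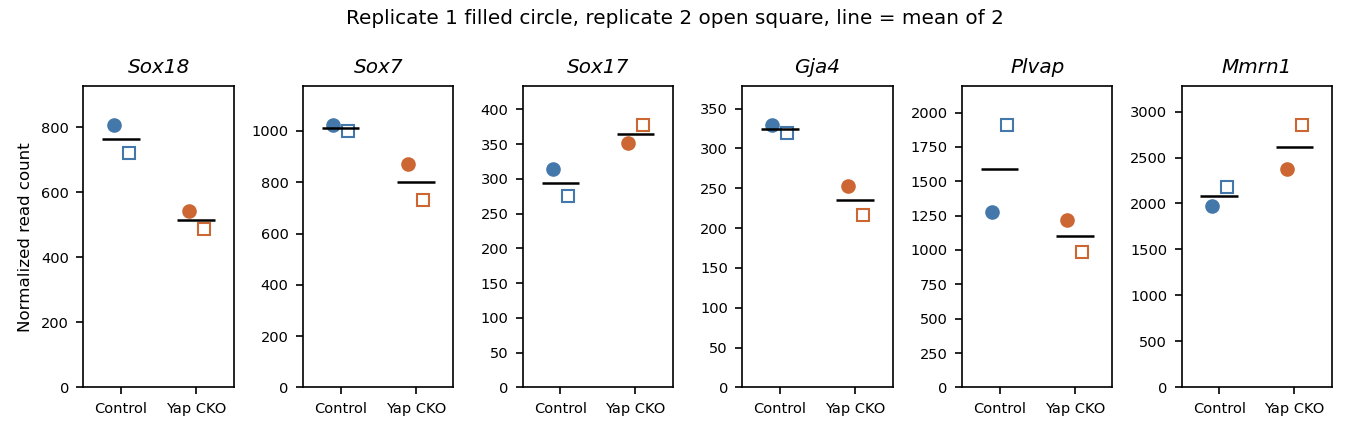
Normalized read counts (vertical axes start at 0) of the 3 SOXF genes and of Gja4, Plvap and Mmrn1 in each library, and black lines at the group means (n = 2 per group). Sox18, Sox7, Gja4 and Plvap are lower and Sox17 and Mmrn1 higher in both Yap CKO libraries than in both controls, and none passed the test over all genes.

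The ETS factors and the venous factor were not called. Erg stood at 829 and 863 in controls and 783 and 756 in Yap CKO (-0.14, adjusted p = 0.517), and Fli1, which leukocytes and megakaryocytes also express, at 610 and 697 against 734 and 802 (0.23, adjusted p = 0.351). Nr2f2, also named COUP-TFII, which lung mesenchyme expresses as well, was at 4767 and 5066 in controls and at 5300 and 5046 in Yap CKO. Its groups overlapped, and the fold was 1.05 (0.905 to 1.22).

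Promoters of the members were searched for letters that these factor families are known to recognize. RefSeq promoters (GRCm38.p6, the assembly of mm10) were matched for 22 of the 36 genes, 27 promoters in all. In the 250 bases before the start site the ETS letters AGGAAG, on either strand, were present in 11 of the 27 (40.7%), against 29.5% of all 32851 promoters. The SOX letters ACAAT, on either strand, were present in 9 (33.3%), against 27.7% of all. These letters cannot overlap each other. A match is only a description of the letters and no sign of binding. The windows of Eng (chr2:32646345-32646594, + strand) and Flt1 (chr5:147726012-147726261, - strand) are shown because each holds the ETS letters more than once. A window of Egfl7 with 3 matches and that of Emcn with 2 are not shown, and share 27 and 11 bases with annotated exons. The window of Gja4 (chr4:127314040-127314289, - strand) is shown because it belongs to an arterial gene with an unadjusted p under 0.05 and holds the SOX letters. Capitals mark the ETS letters in Eng and Flt1 and the SOX letters in Gja4, and none of the windows shown touches an annotated exon.
Eng: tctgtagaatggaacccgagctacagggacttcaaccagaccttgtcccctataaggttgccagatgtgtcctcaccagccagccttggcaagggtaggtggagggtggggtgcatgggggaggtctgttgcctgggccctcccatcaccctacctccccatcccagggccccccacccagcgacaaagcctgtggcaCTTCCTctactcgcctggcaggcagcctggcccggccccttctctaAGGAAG
Flt1: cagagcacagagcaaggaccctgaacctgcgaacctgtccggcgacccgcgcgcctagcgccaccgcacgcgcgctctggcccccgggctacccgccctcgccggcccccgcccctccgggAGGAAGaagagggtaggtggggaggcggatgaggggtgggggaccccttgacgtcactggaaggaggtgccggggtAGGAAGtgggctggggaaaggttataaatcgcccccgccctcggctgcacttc
Gja4: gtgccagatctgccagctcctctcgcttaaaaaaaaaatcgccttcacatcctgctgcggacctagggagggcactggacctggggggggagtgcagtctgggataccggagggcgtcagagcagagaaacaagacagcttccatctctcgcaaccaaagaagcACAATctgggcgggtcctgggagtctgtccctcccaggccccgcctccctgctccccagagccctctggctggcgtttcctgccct

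Arterial genes were split. Gja4, the arterial gap junction protein connexin 37, was at 329 and 319 in controls and at 253 and 216 in Yap CKO. Both knockouts were lower, by -0.47 ± 0.15 SE on the log2 scale (adjusted p = 0.161). Efnb2, the ephrin ligand of arteries that other lung cells also make, was at 2779 and 3072 in controls and 3230 and 3757 in Yap CKO. It was higher without a call (0.25 ± 0.11, adjusted p = 0.285). Bmx, an arterial kinase, had values of 10.7 and 79.5 in controls and 46.1 and 20.5 in Yap CKO. The controls of Bmx spanned both knockouts, and its interval ran from 0.24-fold to 4.51-fold. Ephb4, the venous receptor for Efnb2, was at 4324 and 4337 in controls and 4026 and 3999 in Yap CKO. Replicates of Ephb4 were nearly equal and the groups apart, yet the difference was only -0.11 ± 0.08 SE (adjusted p = 0.543).

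Lymphatic genes did not move together. Mmrn1, a matrix protein of lymphatic endothelium that platelets also store, stood at 1977 and 2182 in controls and at 2372 and 2850 in Yap CKO. It was higher in both knockouts (0.32 ± 0.12 SE, adjusted p = 0.217), and passed without control 2 (0.39, adjusted p = 0.0405). Lyve1, the hyaluronan receptor of lymphatics and of some macrophages, was at 1366 and 1437 in controls and 1352 and 1159 in Yap CKO (-0.16, adjusted p = 0.485). Prox1, the lymphatic master regulator, was at 264 and 740 in controls and 340 and 298 in Yap CKO. Control 2 alone set its mean apart, and the difference of -0.47 became 0.27 without that library and -1.21 (adjusted p = 0.000176) without control 1. Prox1 is also expressed by heart muscle and neuroendocrine cells. Macrophage and leukocyte genes summed to 3809 and 4538 in controls and to 3470 and 3641 in Yap CKO. Of these 12 genes 11 were at lower values in Yap CKO, 0 were called, against 2.33% of all genes, and none was at 0. At an unadjusted p under 0.05 (limma) 0 of the 12 were higher and 4 were lower, against 9.34% and 9.52% of all genes. Platelet genes summed to 734 and 439 in controls and to 415 and 513 in Yap CKO, with 6 of 9 lower, 0 called and none at 0. The 5 neuroendocrine genes summed to 230 and 301 in controls and to 190 and 175 in Yap CKO, again with none at 0. At the same unadjusted limit 1 of the 9 platelet genes and 2 of the 4 neuroendocrine genes measured were lower, and 0 were higher. The part of these cells in the values of Lyve1, Mmrn1, Fli1 and Prox1 was not tested.

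None of the 4 capillary, apelin and nitric oxide genes was called. Aplnr, the apelin receptor, was the highest member per kilobase of exon, at 1587 normalized counts per kb over the 4 libraries, followed by Cdh5 at 1199 and Ephb4 at 899. Its counts were 3837 and 6915 in controls and 6563 and 6171 in Yap CKO. Control 1 was the low library, and the difference went from 0.30 over all libraries to 0.73 without control 2 (adjusted p = 0.000115) and -0.12 without control 1. Apln, the apelin ligand of sprouting cells, was at 1100 and 980 in controls and 996 and 1302 in Yap CKO. The endothelial nitric oxide synthase Nos3 was at 351 and 574 in controls and 429 and 381 in Yap CKO, and an antisense gene covers 25.2% of its exon bases. Car4, the carbonic anhydrase of later alveolar capillaries, was barely detected, with 4 and 8 reads in controls and 20 and 9 in Yap CKO. Its normalized counts of 3.88, 9.36, 19.2 and 8.39 are near the floor of 3 reads, which is 2.80 to 3.51, and no difference was detectable at this depth.

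Some members differed between libraries of the same group. In 8 genes (Aplnr, Bmx, Car4, Nos3, Plvap, Prox1, Tek and Vwf) control 2 exceeded control 1 by more than 1.4 times, and in 0 the reverse held. These genes were picked for that order, with the limit set after the values were seen, so it is no finding. Heart muscle genes summed 28.2 times higher in control 2 than in control 1 and 5.47 times higher in Yap CKO 1 than in Yap CKO 2. All 15 heart muscle genes had that order in both groups, and 2 of them were at 0 in a library, Nkx2-5 in control 1 and Nppb in Yap CKO 2. In Yap CKO all 8 members were higher in replicate 1, by 1.02 times for Tek to 2.29 times for Car4, against 17 of the other 28 members and 49.8% of all genes tested. Tek was nearly equal there, and Car4 rests on 20 and 9 reads. The 49.8% covers genes not picked by their control ratio, so it is not a like comparison. Same-numbered replicates deviated in opposite directions across all genes tested (correlation -0.364), heart muscle genes included. The part of heart muscle genes in that correlation was not tested. Vwf was at 680 and 1233 in controls and 827 and 700 in Yap CKO, and Tek at 1256 and 2021 against 1765 and 1738. Genes of endocardium and valves, the inner lining of the heart, summed to 15772 and 21368 in controls and to 16145 and 15565 in Yap CKO. The largest part of those sums was Cdh11, at 11030 and 11469 in controls and at 8334 and 9375 in Yap CKO. Cdh11 was thus high in control 1, where heart muscle genes were low, so the sums do not measure heart lining alone. Tbx20 of the same list was at 23.3 and 2122 in controls and at 506 and 208 in Yap CKO. Of the 7 endocardial and valve genes 6 were higher in control 2 and 6 in Yap CKO 1, and none was at 0. Nfatc1 among them was at 353, 690, 473 and 436 in the same order. Other lists differed in that order. Of 7 mesothelial genes 6 were higher in control 2 and 6 in Yap CKO 1. Of 10 further lymphatic genes the counts were 9 and 7. Of 10 lung epithelial genes they were 2 and 2, and of 9 platelet genes 1 and 3. Of 12 macrophage and leukocyte genes they were 5 and 5, and of 12 erythroid genes 6 and 2. The part of heart tissue in the values of the members was not tested. Without those 8 genes the other 28 had a median of -0.05 and a range of -0.57 to 0.32.

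**Figure D4:**
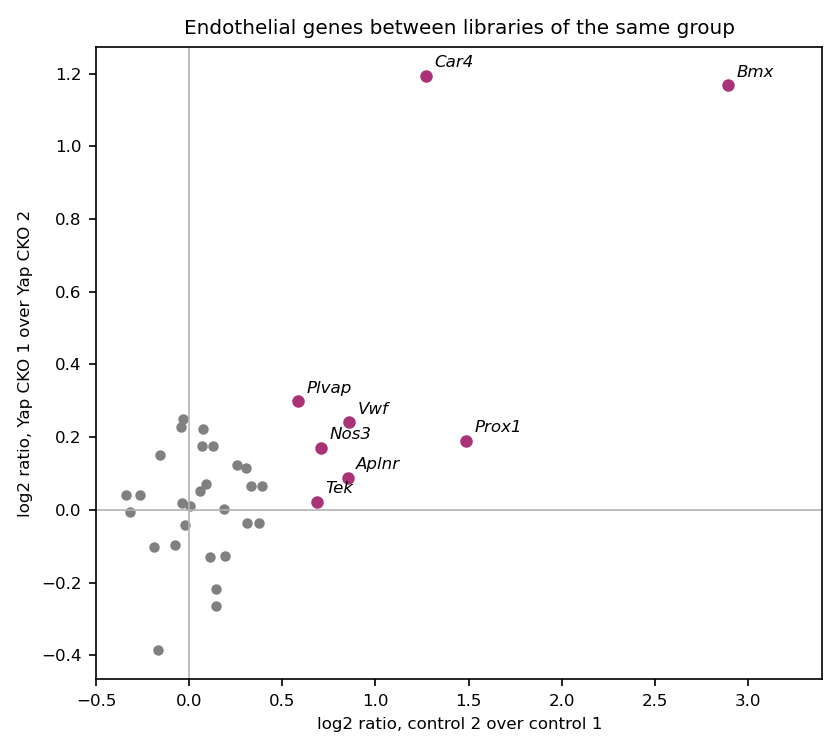
Log2 ratio of control 2 over control 1 (horizontal axis) against log2 ratio of Yap CKO 1 over Yap CKO 2 (vertical axis), 1 point per endothelial gene. The 8 named genes have control ratios from 1.5 for Plvap to 7.46 for Bmx and all lie above 0 on the vertical axis.

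Ligands and co-receptors that act on these vessels were not called. Of 14 genes for VEGFs, angiopoietins and their co-receptors, 0 passed and the median log2 difference was -0.02. An unadjusted p under 0.05 (limma) was found for 2 of them, and for 18.9% of all genes tested. Vegfa, the main ligand of Kdr, was at 5211 and 2833 in controls and 3900 and 3601 in Yap CKO, inside the control range. Vegfb, a ligand of Flt1, was at 1076 and 1130 against 815 and 634 (-0.62 ± 0.14, adjusted p = 0.0842). The gene of the vessel growth inhibitor vasohibin, Vash1 (-0.40, adjusted p = 0.192), Angpt2 (0.60, adjusted p = 0.332) and Nrp2 (0.17, adjusted p = 0.382) followed. Vegfb passed with DESeq2 (adjusted p = 0.0136) and without control 1 (0.0109) or control 2 (0.0118). Vash1 passed without control 2 (-0.57, adjusted p = 0.00534). Angpt2 was not called without either Yap CKO library, at 0.16 without Yap CKO 1 and 1.04 without Yap CKO 2. Among 12 genes of endothelial Notch signalling and arteries 0 passed and the median was -0.05. At an unadjusted p under 0.05 (limma) 1 of the 12 was higher and 3 were lower, against 9.34% and 9.52% of all genes tested. Nearest were the netrin receptor gene Unc5b (-0.41, adjusted p = 0.148), the Notch target Hey1 (-0.37, adjusted p = 0.191), the arterial connexin 40 gene Gja5 (-0.68, adjusted p = 0.239) and Cxcr4 (0.43, adjusted p = 0.252). Without control 1, Gja5 (-1.05, adjusted p = 0.00126) and Cxcr4 (0.70, adjusted p = 0.0016) passed, while without control 2 they stood at -0.31 and 0.16. Unc5b passed without control 2 (-0.45, adjusted p = 0.0271).

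Other endothelial genes held a few calls. Of 41 further general endothelial genes measured, 1 rose, 1 fell and 39 did not pass, with a median of 0.015. Over all genes tested 2.33% were called, and no list was tested against that share. Stab2, a scavenger receptor of sinusoidal and lymphatic endothelium, rose from 173 and 139 in controls to 318 and 297 in Yap CKO (0.98 ± 0.17 SE, adjusted p = 0.0427). Podxl, an apical sialomucin of endothelium that mesothelium also carries, fell from 5679 and 6601 to 4065 and 4017 (-0.60 ± 0.10, adjusted p = 0.0433). The 7 mesothelial genes were all at lower values in Yap CKO, with 0 called, where 2.33% of all genes were, and none at 0. At an unadjusted p under 0.05 (limma) 0 of the 7 were higher and 3 were lower, against 9.34% and 9.52% of all genes. The mesothelial genes summed to 4554 and 6224 in controls and to 4382 and 3585 in Yap CKO. Their part in Podxl was not tested. Kit (0.73, adjusted p = 0.0699) and Tbx3 (0.36, adjusted p = 0.0965), whose cells of origin were not tested, did not pass with limma. DESeq2 called both (adjusted p = 0.00194 and 0.0156), as did limma without control 1 (0.00879 and 0.047) or without control 2 (1.4e-05 and 0.0238). Of 10 further lymphatic genes 1 fell and 9 did not pass, with a median of -0.11, beside the same 2.33% of all genes. At an unadjusted p under 0.05 (limma) 0 of the 10 were higher and 4 were lower, against 9.34% and 9.52% of all genes tested. The call was Tbx1, which acts in lymphatic and pharyngeal development, at 392 and 279 in controls and 64.4 and 126 in Yap CKO (-1.87 ± 0.33, adjusted p = 0.0477). Which cells of the whole lung gave the fall of Tbx1 was not tested, so it is not shown to be lymphatic. Itga9 (-0.46, adjusted p = 0.0963), Pdpn (-0.56, adjusted p = 0.147) and Gja1 (-0.25, adjusted p = 0.198), which other lung cells also express, were nearest. Itga9 passed with DESeq2 (adjusted p = 0.0131) and without control 1 (0.0147) or control 2 (0.0257), and Pdpn without control 1 (-0.73, adjusted p = 0.00912). The adjusted p of these 3 calls, Stab2, Podxl and Tbx1, varied between settings. With DESeq2 it was 0.00341, 4.48e-05 and 3.05e-05, and without control 1 or control 2 it was at most 0.00411. All 3 calls ended without Yap CKO 1, without Yap CKO 2, without the filter or without the intensity trend, and those of Podxl and Tbx1 also under equal totals, TMM scaling and edgeR. The filter and the trend leave the log2 differences as they were.

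Cells beside and inside the vessels gave the following values. Of 10 measured genes of mural cells, the pericytes around capillaries, 0 passed. In this list 3 had an unadjusted p under 0.05 (limma), where 18.9% of all genes tested did. The mural list summed to 16692 and 17397 in controls and to 15856 and 15211 in Yap CKO. Erythroid genes, from red cells within the vessels, summed to 119663 and 162395 in controls and to 90117 and 117710 in Yap CKO. The list held 1 rise and 1 fall among 12 genes, where 2.33% of all genes tested were called, with 3 values higher and 9 lower in Yap CKO. The rise was in Epb42, a red cell membrane protein gene, from 116 and 38.6 to 496 and 384 (2.68 ± 0.47, adjusted p = 0.0443). Its difference was 3.47 without control 1 and 1.90 without control 2. The fall was in the embryonic globin gene Hba-x, from 5920 and 6104 to 2483 and 3077 (-1.12 ± 0.12, adjusted p = 0.0134). Both calls ended without Yap CKO 1 or Yap CKO 2, without the filter and without the trend, and that of Epb42 also with edgeR (adjusted p = 0.0542).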

How the data were processed

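Whole-lung RNA was sequenced in 4 libraries. Per the submitters' processing notes, the tools were edgeR 3.18.1, DESeq 1.16.0, featureCounts 1.5.0-p1 and Bowtie2 2.2.9 and the build was mm10, in no stated order or role. The annotation release and strand setting are not given in the sources used here. The authors deposited a normalized read count per gene, a non-negative signal scaled by 1 factor per library. Every value was a whole multiple of 1 number per library (100% within 0.001 reads), so reads were recovered. Counting floors cover counting error only.

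GENCODE M21 matched 52403 of 52636 identifiers and gave symbols, positions and exon lengths. Log2(normalized count + 1) of 19472 genes with a mean of at least 10 was tested with limma 3.58.1 in R 4.3.3 (moderated variance with intensity trend, two-sided, Benjamini-Hochberg over all genes, called under 0.05). The fit had 2 residual and 4.5 prior degrees of freedom. A fold is 2 to the power of that log2 difference, which understates changes of low genes. edgeR 4.0.16 and DESeq2 1.42.0 were alternatives, with other pseudocounts, filters and scalings, leaving out each library, and a replicate block. An exact permutation test of 2 against 2 cannot go below 0.333. Replicates differed by more than sampling noise (chi-square per degree of freedom 22.1 in controls and 6.64 in Yap CKO).

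Values in each library are given for members with an unadjusted p under 0.05 and, in each role list, for the 2 with the highest mean and the 1 with the smallest p. Others were added after their values were seen. Outside the members, called genes and up to 4 with the smallest p are named in the vascular lists. Members and lists were chosen with earlier results of these data known. 1 listed symbol (Eltd1, an older name of Adgrl4) was left out, and Ramp2 shares 33.4% of its exon bases with Vps25.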

Additional observations from a re-analysis of the deposited data

How the results depend on the processing

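With 2 libraries per group, calls depended on the settings. The 454 genes called became 56 without the filter, 6 without the intensity trend and 1037 with DESeq2, where 1 member (Sox18) passed. Leaving out 1 library gave 2 to 2665 genes, 0 to 8 members and a member median of -0.135 to 0.054. The 8 were without control 1 (13.7% of all genes called) and were Prox1, Eng, Sox18, Bmx, Nos3, Vwf, Plvap and Ramp2. Without control 2 there were 5 (12.7%), namely Aplnr, Sox18, Tek, Flt1 and Mmrn1. The lone library is assumed there to vary like the other group. Without Yap CKO 1 there were 2 genes, and without Yap CKO 2 there were 17, with 0 members in either. The cause was not tested.

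Of the 36 members 21 kept their sign under every setting that gave a value. Under equal totals Emcn (0.01), Kdr (0.037), Cdh5 (0.034) and Pecam1 (0.015) turned positive, the member median was 0.013 and 62% of all calls were rises, against 50.9% as deposited. Bmx turned to -0.01 with pseudocount 5, -0.421 with edgeR and -0.437 with DESeq2. Signs also turned when 1 library was left out. The ranges over those fits were -1.338 to 1.449 for Bmx, -0.12 to 0.73 for Aplnr, -0.206 to 0.48 for Tek, -1.214 to 0.273 for Prox1, -0.695 to 0.161 for Vwf and -0.505 to 0.204 for Nos3. Smaller ranges crossed 0 for Apln (-0.06 to 0.327), Emcn (-0.239 to 0.134), Tie1 (-0.065 to 0.191), Kdr (-0.074 to 0.024), Cdh5 (-0.181 to 0.125), Robo4 (-0.125 to 0.195), Esam (-0.048 to 0.261), Pecam1 (-0.181 to 0.087) and Cldn5 (-0.065 to 0.111).

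Same-numbered replicates deviated in opposite directions (correlation -0.364 across genes), and 2 numbers do not establish pairs. With the replicate number as a block 342 genes and 0 members were called, and the calls of Stab2 (adjusted p = 0.0551), Podxl (0.0521) and Tbx1 (0.0658) ended. The crossed pairing, added after the data were seen, gave 972 of the 19472 genes tested and 2 of the 36 members.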
